A study of Oryctolagus cuniculus with 8 samples.

Results

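The let-7 and miR-98 family was followed in the extracellular vesicles of rabbit uterine and oviductal fluid. Its 9 members were taken by name from the deposited table of 579 mature miRNAs. They are ocu-let-7a-5p, ocu-let-7b-5p, ocu-let-7c-5p, ocu-let-7d-5p, ocu-let-7d-3p, ocu-let-7f-5p, ocu-let-7g-5p, ocu-let-7i-5p and ocu-miR-98-5p, written from here on without the rabbit tag "ocu-". Of these, 8 are 5p forms, cut from the 5′ side of the hairpin precursor, and let-7d-3p comes from the opposite side of the let-7d hairpin.

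Per the labels' protocols, the 3 uterine libraries came from uterine flushes pooled over 5 does each, and the 5 oviductal libraries from oviductal flushes pooled over 3 does each. The flush volume was 2.2 mL for uterine and 1.0 mL for oviductal libraries, so volume and fluid type cannot be told apart. All does were wild type California x New Zealand white crosses that had littered before, and no age is given. Both groups shared one treatment: 25 IU of the gonadotropin eCG and, 48 h later, a GnRH analogue at 20 µg so that they ovulated, with collection 14 to 15 h after that injection, so neither group was untreated. Vesicles, membrane particles that cells shed into fluids, were isolated on a size exclusion column after 2 spins and a 0.22 µm filter. By that account the pools had 30 places for 21 does, and the labels do not say which doe entered which pool, so p-values measure the spread between pools that may share animals. Uterine libraries carry the numbers 12, 3 and 4 of their titles. The one titled 12 is number 1 by its library name, and the labels leave unsaid if that title stands for joined pools, so its number of does, and with it the 30 places, is uncertain.

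The let-7 family is one of the oldest known groups of animal miRNAs and was first found as a timing gene in the worm Caenorhabditis elegans. Its mature forms share one seed, the short stretch that pairs with target mRNAs, and miR-98 carries the same seed under another name. In mammals the family holds back growth genes such as HMGA2, RAS genes and MYC. The RNA-binding proteins LIN28A and LIN28B block the maturation of let-7 precursors in early and undifferentiated cells, and levels rise as cells differentiate. The opposite arm, here let-7d-3p, has its own seed. The members differ from each other by few bases, so a sequencing read may be assigned to more than 1 of them and values of single members are uncertain to that extent.

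RefSeq gene records of the assembly mOryCun1.1 held all 11 let-7 and miR-98 precursors of the table, and they were used only for which miRNA genes lie within 100 kb of each other. Precursors let-7d, let-7f-1 and let-7a-1 lie together, as do let-7a-3 and let-7b, and as do miR-98 and let-7f-2. Precursor let-7a-2 lies near miR-100 and miR-125b-1, and let-7c lies near miR-99a and miR-125b-2. Precursor let-7g has only miR-135a-1 nearby, and let-7i has no other miRNA gene in that window. The mature let-7a and let-7f therefore each come from several places in the genome. How the counts divide such reads among precursors is not given, so the place of origin is uncertain.

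Libraries held 232546 to 479865 miRNA reads in the uterine group and 42684 to 569087 in the oviductal group. The shallowest were oviductal replicates 2 and 3, where 3 reads stood for 63.0 and 70.3 CPM, the reads scaled to a library sum of 1000000. Every member had at least 53 reads in every library, so none was near that floor. For the 6 members with most reads, counting error was at most 3.23% of the value in any library, while for let-7d-5p, miR-98-5p and let-7d-3p it reached 10.4%, 9.02% and 13.7%. These figures cover counting error only, since copies made by PCR were not told apart.

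Together the 9 members took 15.8% to 27.3% of all miRNA reads. Their share was 20.4%, 15.8% and 18.3% in uterine replicates 12, 3 and 4, against 21.3%, 23.2%, 23.8%, 27.3% and 19.1% in oviductal replicates 1 to 5. The 95% Wilson interval of each library's share was narrow, the widest running from 23.4% to 24.2% in oviductal replicate 3. Uterine replicates 3 and 4 lay below every oviductal library and uterine replicate 12 lay above the lowest of them, so the groups overlapped. The mean was 18.2% ± 2.29 in uterine vesicles (SD, n = 3) and 23.0% ± 3.05 in oviductal vesicles (SD, n = 5), a difference of -4.77 percentage points, larger than the SD of either group.

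That difference depended on whether the most abundant miRNA of the libraries, miR-148a-3p, was counted in the total. This miRNA took 43.7% ± 13.02 of uterine reads (SD, n = 3) and 30.8% ± 4.03 of oviductal reads (SD, n = 5). By library miR-148a-3p took 47.6%, 54.4% and 29.2% in uterine replicates 12, 3 and 4, against 27.1% to 37.0% in the oviductal libraries. With its reads left out of the total, the family held 38.9%, 34.7% and 25.9% in uterine replicates 12, 3 and 4, against 33.9%, 34.5%, 33.4%, 37.4% and 26.7% in oviductal replicates 1 to 5. Uterine replicate 12 then had the highest share and uterine replicate 4 the lowest of the 8 libraries. The means were 33.2% ± 6.66 in uterine and 33.2% ± 3.94 in oviductal vesicles, a difference of -0.02 percentage points.

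**Figure D1:**
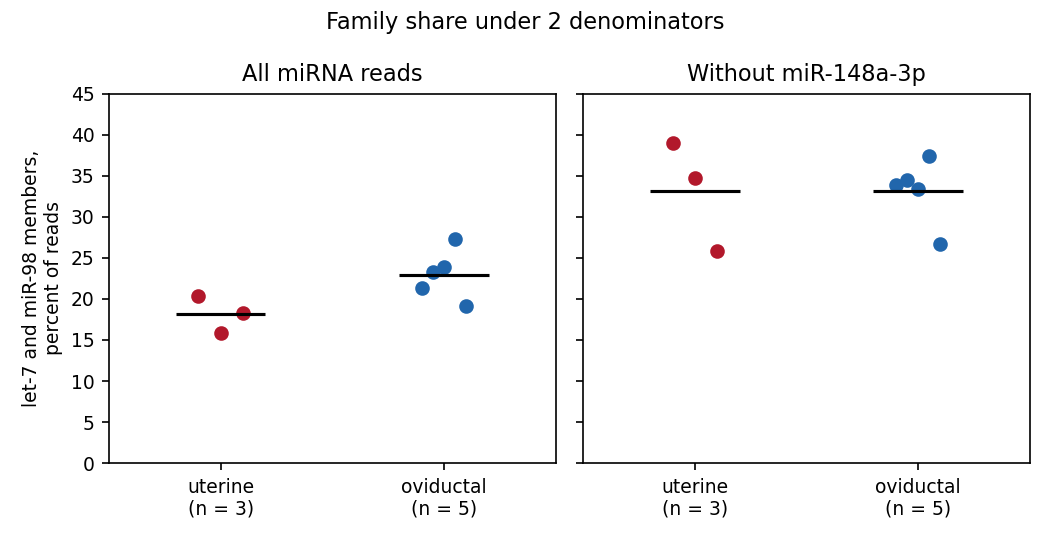
Share of reads taken by the 9 members, in percent, with each point 1 library and the line the group mean. Over all miRNA reads the uterine mean of 18.2% lies below the oviductal mean of 23.0%, and without miR-148a-3p both means are 33.2%.

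The members fell into 2 levels of abundance. The 5p forms of let-7i, let-7b, let-7f, let-7a, let-7c and let-7g had group means from 17603 to 57306 CPM, and let-7d-5p, miR-98-5p and let-7d-3p from 1015 to 4067 CPM. The step lay between let-7g-5p and let-7d-5p, whose reads stood in a ratio of 3.49 to 62.1 across the 8 libraries. All members were compared as reads per mature miRNA with no length scaling.

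Neighbours in the order by mean CPM often changed places. The reads of let-7i-5p exceeded those of let-7b-5p in 6 of 8 libraries, and those of let-7f-5p exceeded those of let-7a-5p in 6 of 8. Each of let-7b-5p against let-7f-5p and let-7c-5p against let-7g-5p went one way in 4 libraries and the other way in 4, so neither pair had a stable order. The reads of let-7a-5p exceeded those of let-7c-5p in 7 of 8 libraries, the exception being uterine replicate 4, and miR-98-5p exceeded let-7d-3p in 6 of 8. In all 5 oviductal libraries let-7d-5p lay above miR-98-5p, by a ratio of 1.03 to 1.77, while it did so in 1 of 3 uterine libraries.

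**Figure D2:**
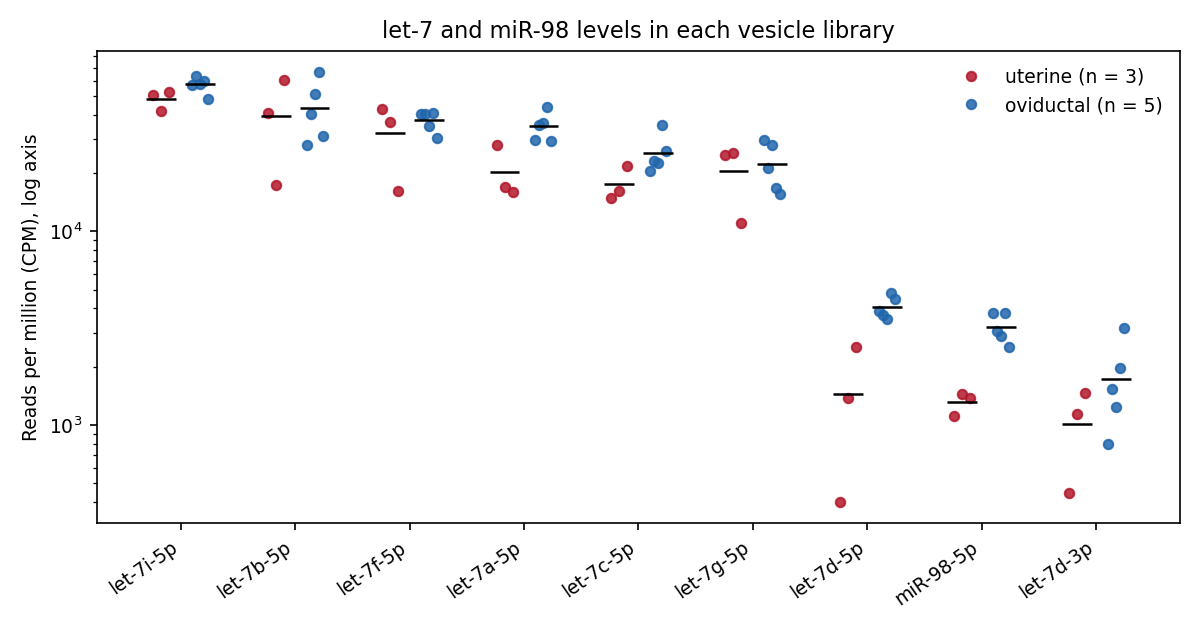
Level of each member in CPM on a log axis, with each point 1 library (uterine left, oviductal right) and the line the group mean. The points of let-7a-5p, let-7d-5p and miR-98-5p do not overlap between the groups, with all 3 uterine libraries lower, while the other members overlap.

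The abundant member let-7i-5p varied least between pools when levels were taken in CPM. Its level was 50678, 41876 and 52635 CPM in uterine replicates 12, 3 and 4, against 57024, 63721, 57727, 59814 and 48246 CPM in oviductal replicates 1 to 5. The groups overlapped, and let-7i-5p ranked between 2nd and 6th of all miRNAs in uterine and between 3rd and 4th in oviductal libraries. Its coefficient of variation was 11.8% in uterine and 9.94% in oviductal vesicles, and it was the leading member in 6 of 8 libraries. In the others, uterine replicate 4 and oviductal replicate 4, let-7b-5p led.

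The level of let-7b-5p was 40895, 17301 and 60331 CPM in uterine replicates 12, 3 and 4, against 27896, 40107, 51401, 66248 and 31022 CPM in oviductal replicates 1 to 5. Its coefficient of variation was 54.5% in uterine and 36.3% in oviductal vesicles, the widest of the abundant members, and the groups overlapped. For let-7f-5p the values were 43037, 36664 and 16236 CPM in uterine replicates 12, 3 and 4, against 40480, 40548, 34978, 40838 and 30377 CPM in oviductal replicates 1 to 5. Uterine replicate 12 was thus above, and uterine replicate 4 below, every oviductal library.

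Of let-7g-5p there were 24825, 25284 and 10998 CPM in uterine replicates 12, 3 and 4, against 29518, 21282, 27879, 16725 and 15588 CPM in oviductal replicates 1 to 5. Uterine replicate 4 was again the lowest of all libraries, and the groups overlapped. The let-7g-5p and let-7f-5p reads kept a ratio of 0.577 to 0.690 in uterine and 0.410 to 0.797 in oviductal libraries. For let-7c-5p the levels were 14870, 16190 and 21749 CPM in uterine replicates 12, 3 and 4, against 20551, 23089, 22514, 35288 and 26019 CPM in oviductal replicates 1 to 5. Uterine replicates 12 and 3 lay below every oviductal library and uterine replicate 4 lay within their range.

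The level of let-7a-5p was 27754, 17011 and 15882 CPM in uterine replicates 12, 3 and 4, against 29613, 35191, 36032, 43615 and 29419 CPM in oviductal replicates 1 to 5. All 3 uterine libraries lay below all 5 oviductal ones, though by a small margin in uterine replicate 12. On the level scaled by TMM, which aligns libraries on the bulk of their miRNAs, the groups of let-7a-5p overlapped.

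In CPM the least abundant 5p forms stood apart more clearly. The level of let-7d-5p was 399.9, 1384 and 2533 CPM in uterine replicates 12, 3 and 4, against 3859, 3677, 3538, 4796 and 4467 CPM in oviductal replicates 1 to 5. Every uterine library lay below every oviductal one, and the value of uterine replicate 12 rested on 93 reads, with a 95% Wilson interval of 326.5 to 489.9 CPM. Uterine pools averaged 1439 ± 1068 CPM (SD, n = 3) and oviductal pools 4067 ± 540.1 CPM (SD, n = 5), which is a ratio of 0.354.

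For miR-98-5p the levels were 1118, 1442 and 1376 CPM in uterine replicates 12, 3 and 4, against 3762, 3046, 2882, 3767 and 2518 CPM in oviductal replicates 1 to 5. Every uterine library lay below every oviductal one here too. In CPM the uterine pools were close to each other, with a coefficient of variation of 13.1%. Uterine pools averaged 1312 ± 171.3 CPM (SD, n = 3) and oviductal pools 3195 ± 553.8 CPM (SD, n = 5), which is a ratio of 0.411. Both let-7d-5p and miR-98-5p also lay lower in every uterine than in any oviductal library on the TMM-scaled level, and again with miR-148a-3p left out of the totals. On the TMM-scaled level the margin for miR-98-5p was small, with uterine replicate 3 just below oviductal replicate 3. That margin lay inside the counting error of miR-98-5p in oviductal replicate 3, which was 9.02%.

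The counts of members without overlap stand against those over all 178 miRNAs tested. In CPM, 3 of 9 members had all uterine libraries below all oviductal ones, where 10.1% of the tested miRNAs did. On the TMM-scaled level, 2 of 9 members did, where 5.62% of the tested miRNAs did. No member had all uterine libraries above all oviductal ones, and the share of tested miRNAs that did was not counted.

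No member passed edgeR's quasi-likelihood test at a Benjamini-Hochberg adjusted p of 0.05 over the 178 miRNAs, where 1.69% were called (3 miRNAs, none of them a member). The log2 fold change, uterine over oviductal, was -1.26 ± 0.52 (SE) for let-7d-5p, with a 95% interval of -2.36 to -0.16, an unadjusted p of 0.0274 and an edgeR adjusted p of 0.188. It was -0.89 ± 0.48 (SE) for miR-98-5p, with an interval of -1.90 to 0.11, an unadjusted p of 0.0788 and an edgeR adjusted p of 0.426. Of the 9 members, let-7d-5p alone had an unadjusted p under 0.05, as did 28 of the 178 tested miRNAs.

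Both values were negative under all 20 alternatives, from -1.66 to -0.81 for let-7d-5p and from -1.42 to -0.65 for miR-98-5p, and neither passed in any of them. The lowest adjusted p among them were 0.0692 and 0.0939, both without uterine replicate 3. Without uterine replicate 12, the pool with the least let-7d-5p, the log2 fold change was -0.93 for let-7d-5p and -0.93 for miR-98-5p.

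The remaining members had intervals on both sides of 0. The log2 fold change was 0.40 for let-7g-5p, 0.29 for let-7f-5p, 0.15 for let-7i-5p, 0.14 for let-7b-5p, -0.18 for let-7c-5p, -0.33 for let-7a-5p and -0.43 for let-7d-3p, with edgeR adjusted p from 0.798 to 0.937. The widest of these intervals, for let-7d-3p, ran from -1.65 to 0.79, and the narrowest, for let-7i-5p, from -0.60 to 0.90. Over all 9 members 4 values were positive and 5 negative with a median of -0.18, and over all 178 miRNAs 87 were positive and 91 negative with a median of -0.02.

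These signs depended on the scaling. The TMM factors were 0.751, 0.666 and 1.21 in uterine replicates 12, 3 and 4 and 0.918 to 1.29 in the oviductal libraries. With library totals as the only scaling all 9 members were negative, with a median of -0.53, and the median of all tested miRNAs moved to -0.31. With upper-quartile factors 5 members were positive and 4 negative, with a median of 0.03, and the median of all tested miRNAs was 0.19.

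**Figure D3:**
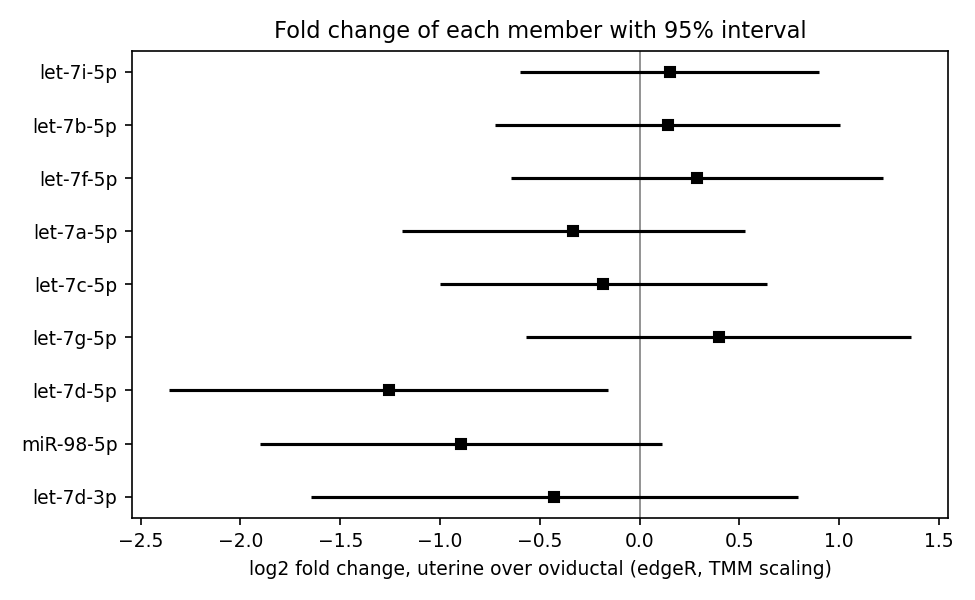
Log2 fold change of each member, uterine over oviductal, by edgeR with TMM scaling, with squares for the estimates and lines for 95% intervals. Only the interval of let-7d-5p, from -2.36 to -0.16, leaves out 0, and no member passed after adjustment over the 178 miRNAs.

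Shares within the family do not depend on how libraries are scaled. Among the reads of the 8 members that are 5p forms, let-7i-5p held 26.8% ± 2.04 in uterine (SD, n = 3) and 25.3% ± 2.19 in oviductal vesicles (SD, n = 5). The share of let-7b-5p was 21.4% ± 11.2 against 18.6% ± 4.46, that of let-7f-5p 17.8% ± 7.76 against 16.5% ± 1.79, that of let-7g-5p 11.4% ± 5.06 against 9.87% ± 3.01 and that of let-7c-5p 9.86% ± 2.36 against 11.2% ± 2.07. In these 5 members the groups overlapped and the means differed by less than the uterine SD. Those differences turned on single uterine pools. The difference of 2.80 points for let-7b-5p was 8.01 without uterine replicate 3 and -3.08 without uterine replicate 4. That of 1.28 points for let-7f-5p was -0.393, -1.49 and 5.71 without uterine replicates 12, 3 and 4, and that of 1.58 points for let-7g-5p was -0.746 without uterine replicate 3 and 4.27 without uterine replicate 4. For let-7c-5p and let-7i-5p, single libraries left out moved it without a change of sign, from -2.41 to -0.0767 and from 0.456 to 2.49 points, with the ends at uterine replicates 4 and 12 in both. Leaving out 1 oviductal library kept all 5 signs, and moved at least 1 of these differences by over 1.5 times for replicates 1, 3, 4 and 5, for example to 1.42 points for let-7b-5p (without replicate 1) and to 0.651 for let-7g-5p (without replicate 4).

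The other 3 held smaller shares in every uterine library than in any oviductal one. The share of let-7a-5p was 11.1% ± 2.46 in uterine pools and 15.2% ± 0.814 in oviductal pools, with a uterine maximum of 13.6% and an oviductal minimum of 13.9%. That of let-7d-5p was 0.824% ± 0.601 in uterine pools and 1.81% ± 0.344 in oviductal pools, with a uterine maximum of 1.39% and an oviductal minimum of 1.49%. That of miR-98-5p was 0.741% ± 0.185 against 1.41% ± 0.212, with a uterine maximum of 0.918% and an oviductal minimum of 1.22%. The difference kept its sign in all 3 with any 1 library left out, from -5.45 to -3.001 points for let-7a-5p, from -1.27 to -0.673 for let-7d-5p and from -0.754 to -0.570 for miR-98-5p. No test was run on these shares, since the members were chosen with earlier results known.

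**Figure D4:**
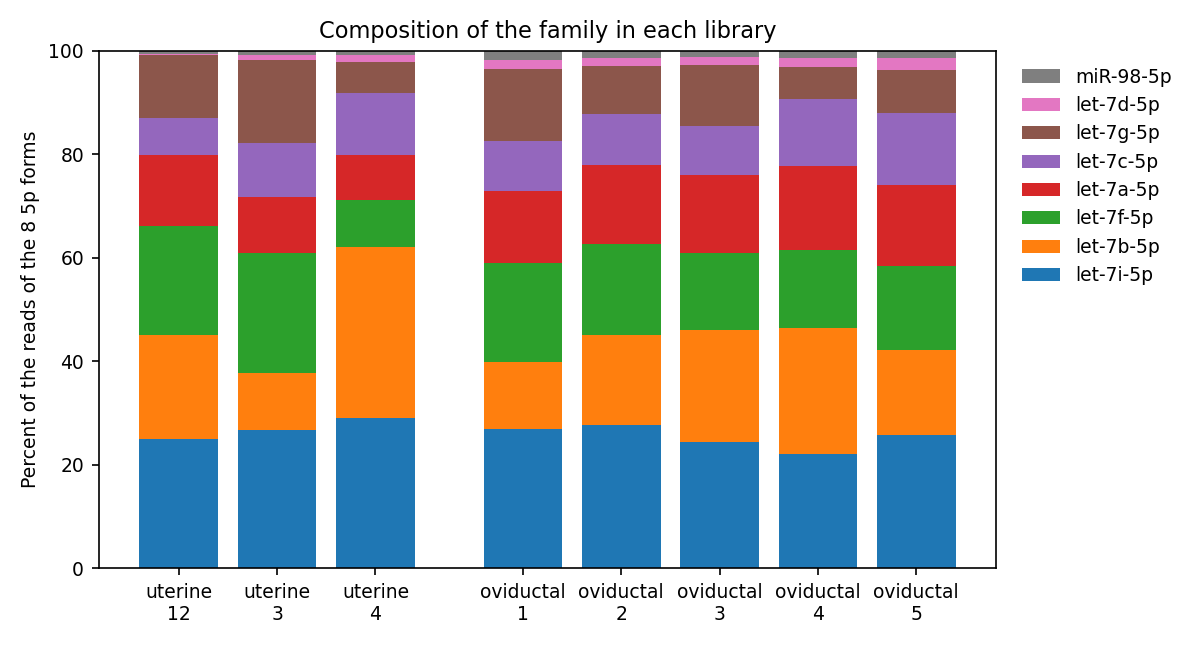
Reads of each 5p form in percent of the reads of all 8, with 1 stacked bar per library, uterine at the left and oviductal at the right. The share of let-7b-5p differs among the uterine bars, at 33.2% in replicate 4 and 11.01% in replicate 3, and is 13.1% to 24.4% in the oviductal bars.

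The uterine pools did not share one make-up. In uterine replicate 4 let-7b-5p had 3.80 times the reads of let-7a-5p, against 1.47 and 1.02 times in uterine replicates 12 and 3 and 0.942 to 1.52 times in the oviductal libraries, although let-7b lies beside let-7a-3. In uterine replicate 12 let-7d-5p had 0.0144 times the reads of let-7a-5p, while the ratio was 0.0813 and 0.159 in uterine replicates 3 and 4 and 0.0982 to 0.152 in the oviductal libraries. The miR-98-5p reads were 0.0260, 0.0393 and 0.0848 times those of let-7f-5p in uterine replicates 12, 3 and 4, against 0.0751 to 0.0929 times in the oviductal libraries. Uterine replicates 12 and 3 thus lay below the oviductal range of this ratio and uterine replicate 4 inside it, for miRNAs whose precursors miR-98 and let-7f-2 are neighbours.

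Marker miRNAs of other cells also differed in level between these libraries. The 2 muscle miRNAs miR-143-3p and miR-1-3p together were at 24619, 5489 and 44445 CPM in uterine replicates 12, 3 and 4, against 3457 to 4371 CPM in the oviductal libraries, with miR-1-3p at 0 in oviductal replicates 1 and 4. The 2 epithelial miRNAs miR-200c-3p and miR-141-3p together were at 4700, 23561 and 14245 CPM in uterine replicates 12, 3 and 4, against 33807 to 50789 CPM in the oviductal libraries. The sum was mostly miR-200c-3p, with a log2 fold change of -1.13 ± 0.52 (SE, edgeR adjusted p 0.269), while miR-141-3p was at 0.30 ± 0.62 (SE, edgeR adjusted p 0.894), so the pair had opposite signs and neither passed. The 2 erythrocyte miRNAs miR-451-5p and miR-486-5p summed to 1198 to 7631 CPM in uterine and 921.8 to 2880 CPM in oviductal libraries. That of the liver, miR-122-5p, had 298.6 to 3057 CPM in uterine libraries and 61.5 to 588.3 CPM in oviductal libraries, highest in uterine replicate 12. Neither the erythrocyte miRNAs nor miR-122-5p passed the edgeR test. Of the muscle pair, miR-143-3p passed it, higher in uterine vesicles and with the lowest p of the 178 miRNAs. The other, miR-1-3p, also had a positive log2 fold change, with an edgeR adjusted p just above the threshold. The part of all these markers in the levels of the members was not tested.

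The hairpin of let-7d gave reads from both arms in every library. The level of let-7d-3p was 442.9, 1144 and 1459 CPM in uterine replicates 12, 3 and 4, against 792.7, 1534, 1242, 1956 and 3147 CPM in oviductal replicates 1 to 5. The groups overlapped, with uterine replicate 12 lowest and oviductal replicate 5 highest. The 5p arm had 0.903, 1.21 and 1.74 times the reads of the 3p arm in uterine replicates 12, 3 and 4, against 4.87, 2.40, 2.85, 2.45 and 1.42 times in oviductal replicates 1 to 5. Uterine replicate 12 was the only library with more 3p than 5p reads, and oviductal replicate 5 lay inside the uterine range.

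The log2 ratio of 5p to 3p reads averaged 0.31 ± 0.47 in uterine (SD, n = 3) and 1.37 ± 0.64 in oviductal vesicles (SD, n = 5). The difference was -1.06 ± 0.56 (SE), with a 95% interval of -2.20 to 0.08, an unadjusted p of 0.0669 and a limma adjusted p of 0.201 over the 6 precursors with at least 10 reads of both arms in every library. None of these 6 precursors passed (0%, with 1 at an unadjusted p under 0.05), and none had all uterine ratios below all oviductal ones (0%). Over the 71 precursors with 10 reads of both arms together, a choice made after the data were seen, the limma adjusted p was 0.727.

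**Figure D5:**
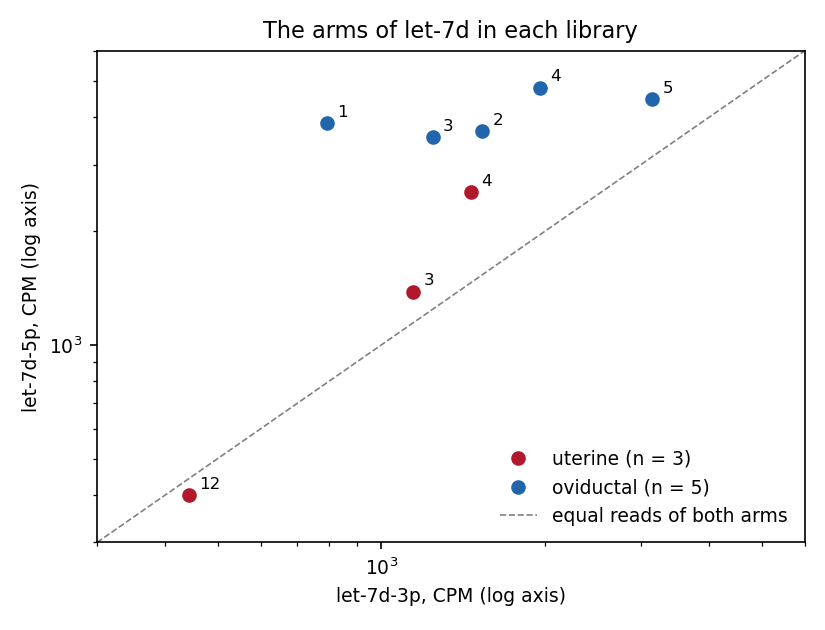
Level of let-7d-5p against let-7d-3p in CPM, both axes log, with each point 1 library labelled by its replicate number and the dashed line equal reads of both arms. Uterine replicate 12 lies just below the line, and the other 2 uterine libraries lie nearer to it than 4 of the 5 oviductal libraries do.

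The other arms of the family were nearly without reads. The table names 9 further let-7 and miR-98 products, all 3p forms, of which 2 had no read, and all of them together had 560 reads against 470358 for the 9 members. Thus let-7d-3p, with 53 to 1791 reads per library, was the main 3p form of the family. The next were let-7b-3p with 242 reads in all and let-7a-3p with 191, and let-7a-3p is listed on 2 precursors with the same reads. Both were tested, at log2 fold changes of 1.30 ± 1.17 and -0.02 ± 1.31 (SE), with edgeR adjusted p of 0.690 and 0.989. For let-7i-3p and let-7c-3p the count of 0 allows up to 12.9 CPM in the shallowest uterine and 70.3 CPM in the shallowest oviductal library.

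A list of 5 miRNAs known to share clusters with let-7 genes was followed, and 3 of them were in the table. The names miR-99b-5p and miR-125a-5p were not in it, and neither was let-7e. None of the 3 passed, and all had negative log2 fold changes, with a median of -0.83. Outside that list, miR-135a-5p, which has a gene beside let-7g and was looked up after its values were seen, was at -2.94 ± 1.61 (SE, edgeR adjusted p 0.430). The level of miR-99a-5p, which lies beside let-7c, was 8506, 34443 and 82783 CPM in uterine replicates 12, 3 and 4, against 95703, 70927, 78765, 87117 and 89285 CPM in oviductal replicates 1 to 5. Its log2 fold change was -0.83 ± 0.49 (SE, edgeR adjusted p 0.461). The let-7c-5p reads were 1.75, 0.470 and 0.263 times those of miR-99a-5p in uterine replicates 12, 3 and 4, against 0.215 to 0.405 times in the oviductal libraries, so uterine replicates 12 and 3 lay above and uterine replicate 4 inside the oviductal range. For miR-125b-5p, which lies near let-7c and let-7a-2, the log2 fold change was -0.85 ± 0.46 (SE, edgeR adjusted p 0.426), and for miR-100-5p -0.09 ± 0.52 (SE, edgeR adjusted p 0.978).

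Both let-7a-5p and let-7f-5p stand on several precursor rows. The 3 rows of let-7a-5p were nearly the same, with 63378, 63175 and 63092 reads on let-7a-1, let-7a-2 and let-7a-3. Those of let-7f-5p were not, with 59739 reads on let-7f-1 and 81312 on let-7f-2, although the table gives both rows one mature name. The let-7f-1 row held 61.3% to 79.4% of the let-7f-2 reads across the 8 libraries. The row with the most reads was used for both. Taking the row with the fewest reads for both, let-7a-3 and let-7f-1, an alternative added after the data were seen, gave a log2 fold change of 0.34 for let-7f-5p, against 0.29 from let-7f-2.

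Among 65 other miRNAs with at least 10 reads in every library, those whose levels ran most like the summed 5p members over the 8 libraries were miR-423-5p (Pearson's r = 0.718, Spearman's rho = 0.548), miR-12090-3p (r = 0.701, rho = 0.571) and miR-103a-3p (r = 0.678, rho = 0.714), on log2(CPM + 1). These values are descriptions over 8 libraries of both groups, which share the totals that set each CPM. The level of miR-423-5p was 4924, 2551 and 10318 CPM in uterine replicates 12, 3 and 4, against 3966 to 13579 CPM in the oviductal libraries. Uterine replicate 3, which had the smallest family share, was also lowest in miR-423-5p. As miR-423-5p was picked as the closest of 65 miRNAs, this match follows in part from the choice.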

How the data were processed

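Small RNA of vesicle pools was sequenced after adaptor ligation, per the labels' protocols. The deposited table holds read counts per mature miRNA and precursor row, which the authors made from reads against OryCun2.0, with FastQC also named, per the submitters' processing notes. The aligner and counter are not given in the sources used. The deposited RPM columns equal the count over its column sum, times 1000000, within 0.005, and were not used further. The table has 615 rows for 579 names. Where a name had several rows, that with most reads was used, and CPM were computed from those rows.

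Counts were tested with edgeR 4.0.16 (filterByExpr, TMM, robust quasi-likelihood fit, Benjamini-Hochberg adjustment over 178 miRNAs, threshold 0.05). Arm ratios used limma 3.58.1 with a pseudocount of 0.5. R was 4.3.3. DESeq2 1.42.0, limma-voom, other scalings and filters, summed rows, replicate blocks and leaving out libraries were alternatives. The procedures were tested on simulated data. SE were derived from the F statistics of the fit.

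The members, lists and named miRNAs were chosen with earlier results of these data known. Named were the 9 members, tested other let-7 products, listed neighbours and the 3 miRNAs most like the summed 5p members, and miR-135a-5p after its values were seen. The sequences of the miRNAs were not used here.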

Additional observations from a re-analysis of the deposited data

How the results depend on the processing

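No member passed in any of the 20 alternatives. The count of called miRNAs, 3 over all tested miRNAs, was 6 with upper-quartile factors, 1 with library totals only, 13 with no filter, 8 with at least 10 reads in every library, 11 by DESeq2, 1 by limma-voom, 7 with summed precursor rows, 0 without both shallowest libraries (edgeR, 20 at an unadjusted p under 0.05) and 0 with a replicate block by title or by library name (edgeR, 8 and 11). The replicate blocks compare the groups only at numbers found in both, 3 and 4 by title and 1, 3 and 4 by library name. They leave little to estimate the spread from, so a count of 0 there says little. Leaving out 1 library gave 1 (without uterine replicate 12 or oviductal replicate 2) to 27 (without uterine replicate 3), and 9 without uterine replicate 4. The difference in family share kept its sign, from -5.88 to -3.59 points without 1 library, and was -0.0218 without miR-148a-3p in the total. The cause of these shifts was not tested.

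Signs of members turned as follows, none past the threshold. With library totals only, let-7b-5p was at -0.13, let-7f-5p at -0.23, let-7g-5p at -0.12 and let-7i-5p at -0.24. With upper-quartile factors let-7c-5p was at 0.0309. With a replicate block by title, which rests on numbers 3 and 4, let-7b-5p was at -0.53, let-7f-5p at -0.31, let-7g-5p at -0.0470 and let-7d-3p at 0.0486. By library name, which rests on numbers 1, 3 and 4, let-7b-5p was at -0.0777, let-7f-5p at -0.0464 and let-7g-5p at -0.0159. Leaving out 1 library gave -0.79 to 0.0516 for let-7a-5p, -0.12 to 0.46 for let-7b-5p, -0.53 to 0.0705 for let-7c-5p, -0.28 to 0.76 for let-7f-5p, -0.27 to 0.85 for let-7g-5p and -0.17 to 0.38 for let-7i-5p, and -0.98 to -0.12 for let-7d-3p, which kept its sign there. Same-numbered libraries did not deviate together, with correlations of -0.15 for number 3, -0.0975 for number 4 and -0.15 for number 1 of the library names, over 178 miRNAs, and nothing in the labels pairs them. Summed rows count reads of let-7a-5p and let-7f-5p more than once, and moved the share difference of let-7a-5p within the 5p forms to -7.73 points and of miR-98-5p to -0.44.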
